A study of Rattus norvegicus with 18 samples.

Results

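The comparison described here sets ventricular myocytes given phenylephrine together with 10 µM Senexin A against cells given vehicle alone, across all genes. It asks what state the cells were in when a hypertrophic stimulus and an inhibitor of the transcriptional kinase CDK8 acted at the same time. The members were chosen by their labels: 6 of the 18 libraries of the series, 3 per group, and 10478 of 17303 rows of the expression table entered the test. The cells were isolated from Wistar rats at postnatal day 3, so they are cultured neonatal myocytes and not adult heart. All groups, Vehicle included, received AraC, a nucleoside that kills dividing cells, for 48 h, then 24 h without serum, then 48 h of treatment with the medium renewed at 24 h. The groups used are Vehicle, PE (10 µM phenylephrine), PE plus 10 µM Senexin A (called the combination below) and 10 µM Senexin A alone, with 3 libraries each. A further pair of groups received 50 µM Senexin A with or without PE and entered the model only through the shared estimate of the spread. The labels do not say whether the 3 libraries of a group came from separate isolations or animals, and the p-values below therefore reflect only the spread among these libraries, which may be technical.

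Phenylephrine activates alpha-1 adrenergic receptors, which signal through Gq, calcium and MAP kinases, and in cultured neonatal myocytes it is the classical agonist of hypertrophic growth. That growth brings back genes of the fetal heart, among them the natriuretic peptides and skeletal alpha-actin, and enlarges the sarcomere. CDK8, with cyclin C, MED12 and MED13, forms the kinase module of Mediator, the complex that links transcription factors to RNA polymerase II. Senexin A inhibits the kinase activity of CDK8 and of its paralog CDK19, and does not by itself require any change in their transcripts.

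RNA was measured by sequencing of polyadenylated transcripts, and levels are FPKM, fragments scaled to transcript length and to the mapped fragments of the library. Summed over all rows, FPKM ranged from 610324 to 660958 in Vehicle and from 839441 to 910958 in the combination, and the 10 most abundant genes held 9.64 to 12.37% against 17.87 to 18.64% of it. Neither quantity overlapped between the groups (exact two-sided permutation test, p = 0.10, the smallest that 3 against 3 libraries allow). Read totals per library are not in the values used here, so the depth behind a level is unknown. Differences between groups are given as log2 fold changes computed after adding 1 FPKM, which understates the change of genes at low level. Each is given with its standard error (SE), and a gene is called at an adjusted p under 0.05 in limma's test.

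Of the genes tested, 5098 (48.7%) were called between the combination and Vehicle, 2781 higher (26.5%) and 2317 lower (22.1%). At least 2-fold higher were 458 (4.37%) and at least 2-fold lower 216 (2.06%). The median difference over all genes tested was 0.0036, and 57.6% of all genes tested had groups that did not overlap. The largest rises and falls named below were picked among genes without overlap, so a lack of overlap is no added support for them. After quantile normalization, which gives all libraries the same distribution of values, 46.6% of the called genes were higher in place of 54.6%. With so many genes called, a list's count is read below against these shares, and a list whose shares lie near them is described without being a result about its members.

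**Figure D1:**
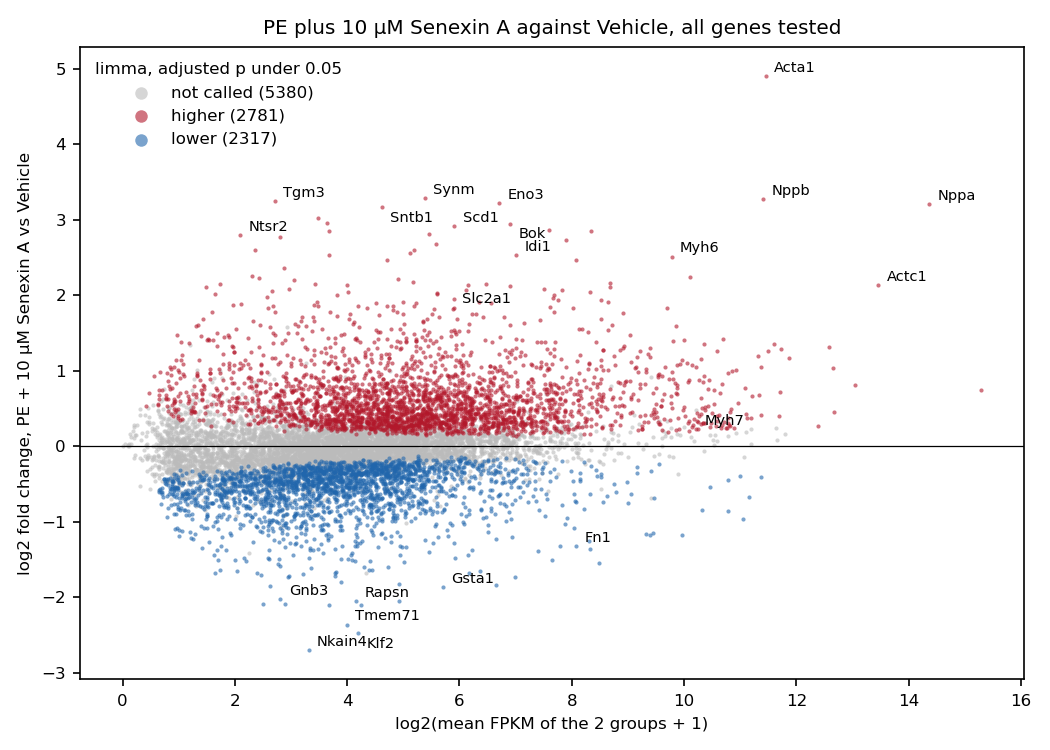
Each point is 1 of the 10478 genes tested. The horizontal axis gives the log2 of the mean FPKM of Vehicle and the combination plus 1, and the vertical axis the log2 fold change of the combination against Vehicle; 2781 red points were called higher, 2317 blue points lower, and grey points were not called. Acta1, at 4.91, is the highest point on this scale, and the lowest point is Nkain4 at -2.70.

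On the log2(FPKM + 1) scale the largest rise was that of Acta1, skeletal alpha-actin, an actin isoform of the fetal and the overloaded heart. Acta1 measured 219, 169.8 and 155 FPKM in the Vehicle libraries and 6075, 5009 and 5195 FPKM in the combination, a log2 fold change of 4.91 ± 0.18 (limma adjusted p = 6.4e-11). All combination libraries lay far above all Vehicle libraries. In the same model Acta1 was 4.09 ± 0.18 above Vehicle in PE alone and 2.66 ± 0.18 above it in 10 µM Senexin A alone, comparisons that share the Vehicle libraries. With a pseudocount of 0.1 the low genes Tgm3 (5.42) and Ntsr2 (5.29), described below, stood higher than this value of Acta1. In rn5, the build of the deposited table, Acta1 lies on chromosome 19 from 67389898 to 67392911.

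The natriuretic peptides were the next of the fetal genes. Nppb, which encodes brain natriuretic peptide, measured 923, 468 and 295 FPKM in Vehicle and 4942, 4674 and 5038 FPKM in the combination (3.28 ± 0.33, limma adjusted p = 1.4e-06). The Vehicle libraries spread widely while those of the combination stood close together, without overlap. Nppa, which encodes atrial natriuretic peptide, measured 9359, 4409 and 1535 FPKM in Vehicle and 39004, 35176 and 36719 FPKM in the combination (3.21 ± 0.45, adjusted p = 3.6e-05). The groups did not overlap, and the value of Nppa was 1.52 after quantile normalization. Both genes lie on rn5 chromosome 5, Nppb from 168454330 to 168455633 and Nppa from 168466308 to 168467618.

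The promoters of Acta1 and Nppb are printed because these genes lead the change in abundant transcripts. The sequences are from RefSeq (GRCr8), 250 bases before to 50 after the annotated start, 5′ to 3′ on the gene's strand, and they cover chr19:68784145-68784444 (minus strand) for Acta1 and chr5:163699758-163700057 (plus strand) for Nppb. Capitals mark matches to the CArG box, which serum response factor binds, to the MCAT motif CATTCC, which TEAD factors bind, and to the GATA motif AGATAA, all searched on both strands.
Acta1: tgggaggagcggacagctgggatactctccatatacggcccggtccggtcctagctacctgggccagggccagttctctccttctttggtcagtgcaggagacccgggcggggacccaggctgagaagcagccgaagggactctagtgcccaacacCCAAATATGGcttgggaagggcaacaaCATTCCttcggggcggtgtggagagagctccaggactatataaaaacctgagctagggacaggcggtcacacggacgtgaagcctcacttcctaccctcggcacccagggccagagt
Nppb: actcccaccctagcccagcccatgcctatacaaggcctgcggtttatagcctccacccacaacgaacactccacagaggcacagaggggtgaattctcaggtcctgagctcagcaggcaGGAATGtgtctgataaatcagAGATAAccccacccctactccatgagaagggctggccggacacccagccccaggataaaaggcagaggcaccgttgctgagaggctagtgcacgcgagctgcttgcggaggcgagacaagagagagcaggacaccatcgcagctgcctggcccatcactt
In Acta1 the CArG box lies 94 to 85 bases and the MCAT motif 67 to 62 bases before the start. In Nppb an MCAT motif on the minus strand lies 131 to 126 bases and a GATA motif 110 to 105 bases before it. Of all 33469 promoters in the RefSeq table, 1.64% hold a CArG box, 14.19% an MCAT motif and 11.58% a GATA motif. A match is a description of the letters, and nothing was measured about binding there.

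Among 18 tested genes of the fetal and hypertrophic programme 10 were higher and none lower in the combination, with a median of 0.87 (3 were lower and 9 higher after quantile normalization). The list includes Myh6, described below, which was among those higher although it is the isoform of the adult rodent ventricle. The count is therefore not of fetal genes alone. Rcan1, a regulator of calcineurin that calcineurin itself induces, rose by 1.24 ± 0.14 (limma adjusted p = 5.3e-06). Ankrd1, a stretch-responsive cofactor in the sarcomere and nucleus, rose by 1.17 ± 0.17 (adjusted p = 6.1e-05), and by 0.54 after quantile normalization. Xirp2, which binds actin at the intercalated disc, measured 43.1, 22.9 and 21.3 FPKM in Vehicle and 56.7, 60.1 and 48.6 FPKM in the combination (0.96 ± 0.26, adjusted p = 0.0067). Atp2a2, the calcium pump SERCA2 whose transcript usually declines in hypertrophy, rose from 709, 654 and 593 FPKM to 1378, 1195 and 946 FPKM (0.83 ± 0.19, adjusted p = 0.0022). Quantile normalization took Atp2a2 to 0.39 and ended its call (limma adjusted p = 0.064). Against Vehicle, Atp2a2 stood at 0.10 ± 0.19 in PE alone, not called (limma adjusted p = 0.74), and at 1.19 ± 0.19 in the inhibitor alone.

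Of the cardiac myosin heavy chains, Myh6 was called and Myh7 was not, and the difference between them was not tested. Myh6, the fast alpha isoform of the adult rodent ventricle, measured 397, 240.4 and 149 FPKM in Vehicle and 1997, 1708 and 782 FPKM in the combination (2.51 ± 0.69, limma adjusted p = 0.007). Myh7, the slow beta isoform of the fetal ventricle, measured 1089, 916 and 935 FPKM in Vehicle and 1039, 1319 and 1833 FPKM in the combination, and was not called (0.48 ± 0.50, 95% interval -0.58 to 1.53, adjusted p = 0.45). Myh7 libraries of the groups overlapped and those of Myh6 did not. Beside these values, Myh7 stood 1.59 ± 0.50 above Vehicle in PE alone and 0.05 ± 0.50 above it in the inhibitor alone, and Myh6 stood 0.12 ± 0.69 and 2.46 ± 0.69 above it. The pair are near-identical neighbours on rn5 chromosome 15, and reads of one may be counted for the other, so both values are uncertain.

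**Figure D2:**
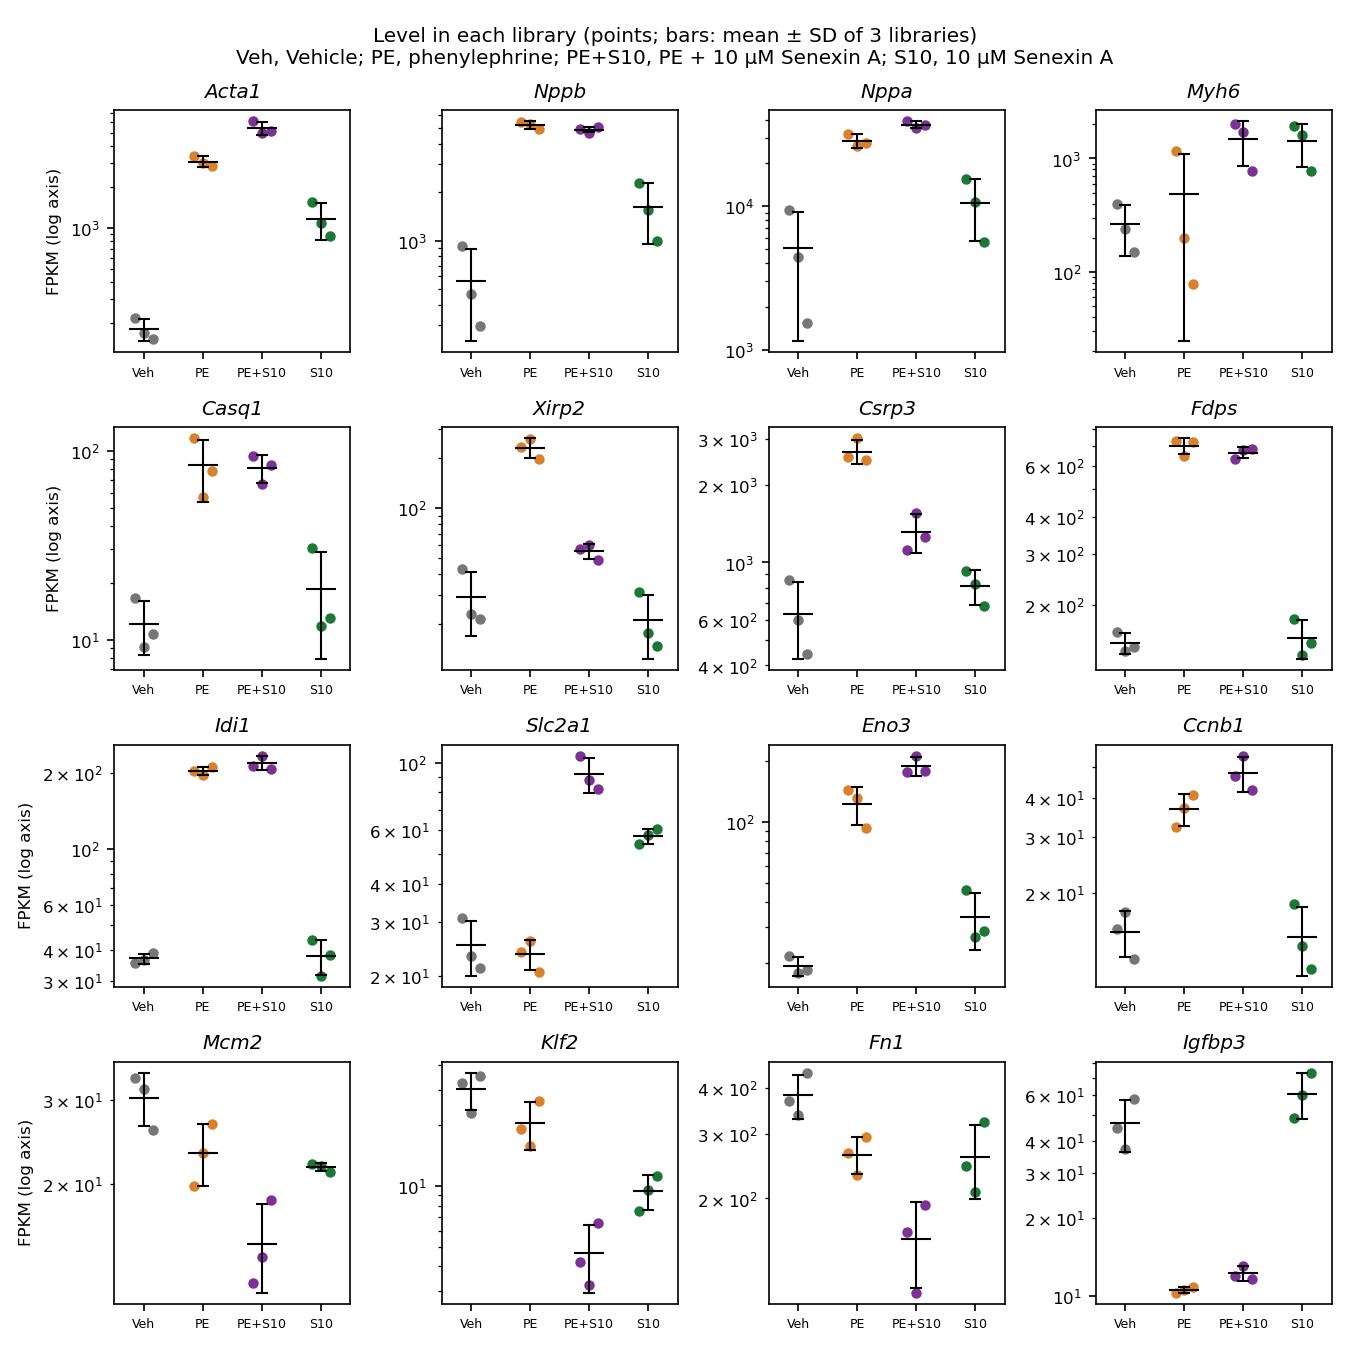
FPKM on a log axis in each library (points) of Vehicle, PE, PE plus 10 µM Senexin A and 10 µM Senexin A alone, for 16 genes, with the mean and SD of 3 libraries as bars. Acta1 in the combination (5009 to 6075 FPKM) lies above all its other libraries, Igfbp3 and the sterol genes Idi1 and Fdps lie near their PE level, and Slc2a1 and Klf2 lie away from both Vehicle and PE.

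Structural genes of the sarcomere were mostly higher. Of 16 tested thin and thick filament genes 11 were higher and 2 lower (median 0.74). Quantile normalization gave 8 and 5 (median 0.32), and the lower count was 0 to 1 when 1 of 4 libraries (Vehicle 1 or 3, combination 1 or 2) was left out. Actc1, the main cardiac actin, rose from 4591, 4137 and 3850 FPKM to 18648, 19160 and 17230 FPKM (2.13 ± 0.14, limma adjusted p = 4.9e-08). Myom2, a protein of the M-band, rose by 1.41 ± 0.27, the ventricular light chain Myl3 by 1.35 ± 0.14 and the tropomyosin Tpm1 by 1.31 ± 0.11. Quantile normalization lowered the values of the most abundant of these, to 0.74 for Actc1, 0.86 for Myl3 and 0.30 for Tpm1, and all stayed called. Of 15 Z-disc and stretch-sensing genes 11 were higher and none lower (median 0.68), 7 after quantile normalization. Myoz2, which tethers calcineurin at the Z-disc, rose by 1.28 ± 0.10, Actn2, the cross-linking alpha-actinin, by 1.05 ± 0.10 and Csrp3, the muscle LIM protein, by 1.09 ± 0.20. Their values after quantile normalization were 0.80, 0.62 and 0.64.

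Other muscle proteins rose far as well. Synm, which encodes the intermediate filament protein synemin, measured 7.76, 6.33 and 6.24 FPKM in Vehicle and 66.6, 75.3 and 82.5 FPKM in the combination (3.29 ± 0.17, limma adjusted p = 6.2e-09). Sntb1, the beta-1 syntrophin of the dystrophin complex, rose by 3.17 ± 0.23, and Tuba4a, an alpha-tubulin, by 2.86 ± 0.19. Myl1, a light chain of fast skeletal muscle, measured 1.31, 0.906 and 1.25 FPKM in Vehicle and 35.9, 10.5 and 11.5 FPKM in the combination (3.02 ± 0.62, adjusted p = 0.00097); combination library 1 stood above the other two. Ckmt2, the sarcomeric mitochondrial creatine kinase, rose by 2.60 ± 0.47.

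Of 16 tested calcium handling genes 8 were higher and 1 lower (median 0.39; 2 lower with the replicate number as a block or without combination library 1). Casq1, the calsequestrin typical of skeletal muscle, rose from 16.6, 9.18 and 10.7 FPKM to 93.8, 66.8 and 83.9 FPKM (2.68 ± 0.36, limma adjusted p = 2.4e-05). Jph2, which holds the calcium store against the surface membrane, rose by 1.38 ± 0.13, and the cardiac calsequestrin Casq2 by 1.10 ± 0.17 (0.69 after quantile normalization). S100a1, a calcium sensor that enhances the ryanodine receptor and the calcium pump, fell by 0.85 ± 0.14 (adjusted p = 0.00014). Among 15 ion channels and connexins 4 were higher and 5 lower, near the shares over all genes (the higher count was 2 after quantile normalization, with no filter on low levels and without Vehicle 1, Vehicle 2, combination 1 or combination 3). The atrial connexin Gja5 fell by 1.19 ± 0.27 and the transient outward channel Kcnd3 by 0.63 ± 0.13.

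A receptor that phenylephrine acts on was itself higher. Of 18 tested genes of adrenergic receptors and G protein signalling 7 were higher and none lower (median 0.14). Adra1a, the alpha-1A receptor, measured 5.41, 6.49 and 11.1 FPKM in Vehicle and 29.8, 21.1 and 24.8 FPKM in the combination (1.64 ± 0.25, limma adjusted p = 6.5e-05), with no overlap. Regulators of G protein signalling, which shorten Gq signals, were also higher: Rgs5 rose by 2.85 ± 0.54, Rgs2 by 1.86 ± 0.20 and Rgs4 by 1.83 ± 0.34. Rgs4 stood 0.23 ± 0.34 above Vehicle in PE alone and 1.55 ± 0.34 above it in the inhibitor alone; the same values for Rgs5 were 0.19 ± 0.54 and 2.16 ± 0.54. Rgs5 is also a pericyte marker, and of 12 smooth muscle and pericyte markers 4 were higher and 2 lower, with a summed level of 5060 to 6688 FPKM in Vehicle and 4141 to 5490 FPKM in the combination; their part in the value of Rgs5 was not tested. Gnb3, a G protein beta subunit, fell from 12.1, 8.63 and 10.1 FPKM to 1.83, 2.19 and 1.31 FPKM (-2.02 ± 0.20, adjusted p = 1.1e-06).

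Transcripts of energy metabolism were higher as groups. Of 24 tested genes of glucose uptake and glycolysis 19 were higher and 2 lower (median 1.01, 0.64 after quantile normalization); the 2 lower calls fell to 1 or 0 in most omissions of a library, at smaller pseudocounts, with no filter and with the compared groups alone. Eno3, the muscle enolase, measured 21.6, 17.9 and 18.5 FPKM in Vehicle and 175.9, 211.6 and 177.9 FPKM in the combination (3.22 ± 0.18, limma adjusted p = 7.5e-09). Slc16a3, a lactate exporter, rose by 2.17 ± 0.17 and Pfkp, a phosphofructokinase isoform, by 2.00 ± 0.19. Slc2a1, the insulin-independent glucose transporter GLUT1, measured 31.0, 23.2 and 21.2 FPKM in Vehicle and 105.5, 87.6 and 82.3 FPKM in the combination (1.84 ± 0.12, adjusted p = 4.9e-08). The values of Slc2a1 against Vehicle were -0.08 ± 0.12 in PE alone and 1.18 ± 0.12 in the inhibitor alone, while those of Eno3 were 2.58 ± 0.18 and 0.74 ± 0.18.

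Mitochondrial enzymes followed. Of 23 genes of pyruvate dehydrogenase and the tricarboxylic acid cycle 20 were higher and none lower (median 0.72), and of 30 genes of oxidative phosphorylation 29 were higher and none lower (median 0.83; under quantile normalization 24 and 1, median 0.40). Pdha1, the catalytic subunit of pyruvate dehydrogenase, rose by 1.47 ± 0.12 (limma adjusted p = 1.8e-07), citrate synthase, Cs, by 1.28 ± 0.11 and cytochrome c, Cycs, by 1.39 ± 0.18. Ndufs1 of complex I rose by 1.13 ± 0.13 and Cyc1 of complex III by 1.12 ± 0.12. After quantile normalization Cs stood at 0.85 and Cyc1 at 0.67. Of 31 genes of fatty acid oxidation and lipid handling 20 were higher and 6 lower (median 0.51, 0.24 after quantile normalization). Acsl1, which activates long-chain fatty acids, rose from 142, 121 and 83.8 FPKM to 404, 394 and 417 FPKM (1.83 ± 0.18, adjusted p = 1.4e-06), and the dehydrogenase Acadm by 1.38 ± 0.16. Ppargc1b, a coactivator of mitochondrial genes, rose by 1.23 ± 0.14, within a list of 17 nuclear receptors and coactivators of which 7 were higher and 4 lower.

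**Figure D3:**
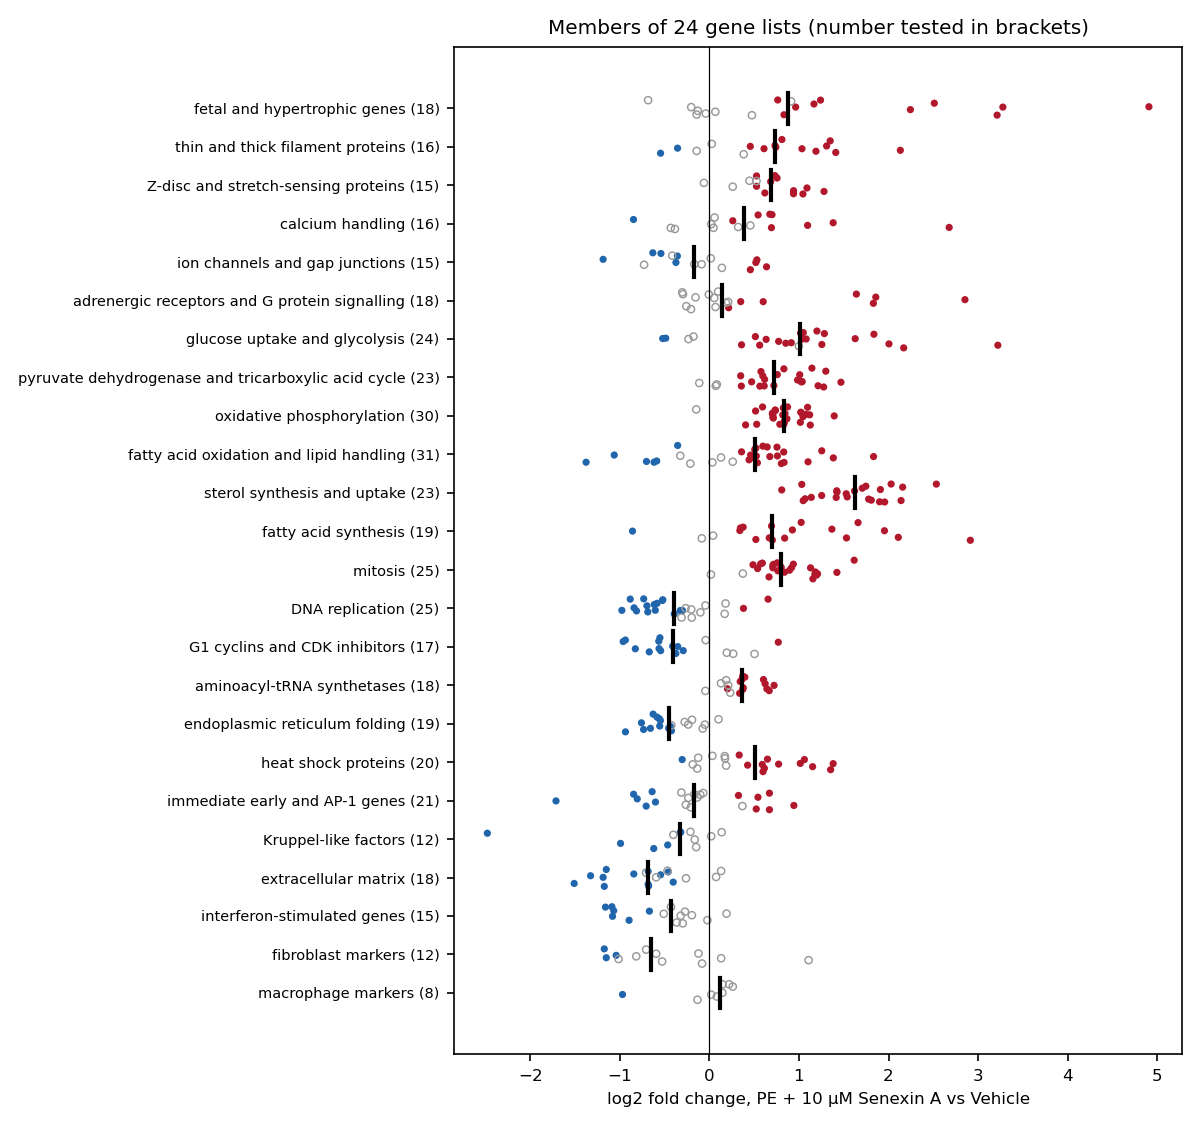
Log2 fold change of the combination against Vehicle (horizontal axis) for the tested members of 24 gene lists, 1 row per list; filled points were called (red higher, blue lower), open points were not, and black bars mark list medians. All 23 sterol genes lie right of 0 with a median of 1.62, mitosis and DNA replication lie on opposite sides of 0 (0.80 and -0.39), and the extracellular matrix list has no member called higher.

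Each tested gene of sterol synthesis and uptake was higher: 23 of 23, with a median of 1.62 against 0.0036 over all genes. Idi1, an isomerase of the mevalonate pathway, measured 35.6, 36.4 and 38.9 FPKM in Vehicle and 214, 234 and 208 FPKM in the combination (2.53 ± 0.25, limma adjusted p = 1.5e-06). Fdps, which makes farnesyl pyrophosphate, rose from 162, 139.9 and 144 FPKM to 633, 682 and 682 FPKM (2.16 ± 0.18, adjusted p = 2.8e-07). Mvd, the mevalonate diphosphate decarboxylase, rose by 2.03 ± 0.18. Against the same Vehicle libraries, Idi1 stood at 2.44 ± 0.25 in PE alone and 0.02 ± 0.25 in the inhibitor alone, and Fdps at 2.23 ± 0.18 and 0.05 ± 0.18. In PE alone 21 of the 23 genes were called higher (17.9% of all genes), and in the inhibitor alone none of the 23 (9.17% of all genes). Over all genes the inhibitor alone had 1696 calls, and 2761 with the replicate number as a block.

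Fatty acid synthesis was higher as well, with 16 of 19 genes called higher and 1 lower (median 0.70). Scd1, the stearoyl-CoA desaturase, measured 16.1, 10.5 and 12.5 FPKM in Vehicle and 128, 79.2 and 109 FPKM in the combination (2.91 ± 0.35, limma adjusted p = 7.5e-06). Scd2, a further desaturase, rose by 2.11 ± 0.24, the acetyl-CoA synthetase Acss2 by 1.96 ± 0.21 and the desaturase Fads1 by 1.66 ± 0.22. Beside the combination, Acss2 stood 0.77 ± 0.21 above Vehicle in PE alone and 0.17 ± 0.21 above it in the inhibitor alone.

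Of 25 tested mitosis genes 23 were higher and none lower (median 0.80), and of 25 DNA replication genes 15 were lower and 2 higher (median -0.39; 12 lower and 0 higher after quantile normalization). Ccnb1, the cyclin that drives entry into mitosis, measured 15.3, 17.4 and 12.3 FPKM in Vehicle and 47.0, 54.4 and 42.3 FPKM in the combination (1.62 ± 0.18, limma adjusted p = 3.7e-06). Aurka, a spindle kinase, rose by 1.42 ± 0.16, and Prc1, which bundles the midzone of the spindle, by 1.21 ± 0.18. Mcm2, a subunit of the replicative helicase, measured 33.4, 31.5 and 25.9 FPKM in Vehicle and 12.4, 14.1 and 18.6 FPKM in the combination (-0.98 ± 0.13, adjusted p = 2.3e-05). Mcm3 and Mcm6 of the same helicase fell by 0.88 ± 0.17 and 0.84 ± 0.16, and the loading factor Cdt1 by 0.81 ± 0.14. No library of one group reached the range of the other for Ccnb1 or Mcm2.

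Of 17 G1 cyclins, cyclin-dependent kinases and their inhibitors 12 were lower and 1 higher (median -0.41). Ccne2, the cyclin of the G1 to S transition, fell by 0.96 ± 0.15, its transcriptional activator E2f1 by 0.83 ± 0.16 and the inhibitor Cdkn1c by 0.94 ± 0.19, while the inhibitor Cdkn2b rose by 0.77 ± 0.17. Side by side against Vehicle, Ccnb1 stood at 1.25 ± 0.18 in PE alone and -0.06 ± 0.18 in the inhibitor alone, and Mcm2 at -0.37 ± 0.13 and -0.46 ± 0.13. In PE alone 23 of the 25 mitosis genes were called higher and none lower, and of the 25 replication genes 2 were higher and 2 lower. Over all genes 17.9% were higher and 12.7% lower in PE alone. In the inhibitor alone 13 of the replication genes and 2 of the mitosis genes were called lower (7.01% of all genes), and none of either list higher.

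Promoters of sterol and mitosis genes are printed because these lists moved together. They follow the same rules as above, with capitals for CCAAT on either strand, the box that the factor NF-Y binds. They cover chr17:66547475-66547774 (minus strand) for Idi1, chr2:176804767-176805066 (minus strand) for Fdps, chr2:33655176-33655475 (minus strand) for Ccnb1 and chr1:143659231-143659530 (plus strand) for Prc1, in GRCr8.
Idi1: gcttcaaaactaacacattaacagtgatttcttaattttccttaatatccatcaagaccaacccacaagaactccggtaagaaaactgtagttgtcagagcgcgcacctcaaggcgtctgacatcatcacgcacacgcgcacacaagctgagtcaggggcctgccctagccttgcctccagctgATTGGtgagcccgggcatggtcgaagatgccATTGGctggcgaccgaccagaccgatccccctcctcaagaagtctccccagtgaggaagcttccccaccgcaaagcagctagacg
Fdps: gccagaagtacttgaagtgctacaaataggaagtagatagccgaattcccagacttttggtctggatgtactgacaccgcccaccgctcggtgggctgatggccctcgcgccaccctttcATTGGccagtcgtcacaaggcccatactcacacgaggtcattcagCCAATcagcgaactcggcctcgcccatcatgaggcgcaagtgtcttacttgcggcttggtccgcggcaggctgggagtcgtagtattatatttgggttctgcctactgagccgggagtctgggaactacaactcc
Ccnb1: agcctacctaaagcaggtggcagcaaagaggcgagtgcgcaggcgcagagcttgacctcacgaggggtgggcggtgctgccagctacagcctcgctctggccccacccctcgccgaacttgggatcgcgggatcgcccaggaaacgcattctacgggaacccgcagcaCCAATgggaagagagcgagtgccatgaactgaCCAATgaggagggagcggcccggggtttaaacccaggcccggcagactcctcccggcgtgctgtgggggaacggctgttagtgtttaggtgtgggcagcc
Prc1: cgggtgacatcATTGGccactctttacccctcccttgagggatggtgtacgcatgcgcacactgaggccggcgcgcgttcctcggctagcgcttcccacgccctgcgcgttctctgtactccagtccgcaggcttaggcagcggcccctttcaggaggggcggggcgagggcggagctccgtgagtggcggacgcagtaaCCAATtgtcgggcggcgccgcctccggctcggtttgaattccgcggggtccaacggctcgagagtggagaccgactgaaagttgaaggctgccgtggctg
CCAAT stood in 14 of 16 promoters found for the sterol list, 16 of 22 for mitosis and 13 of 21 for DNA replication, against 37.49% of all promoters. The lists hold a single promoter per gene, while the share over all counts every promoter, genes outside the test included. The sets are thus unlike, and enrichment was not tested. The replication genes, which were mostly lower, hold the box too. The sterol regulatory element TCACNCCAC was found in none of the 16 sterol promoters and in 1.12% of all, in windows of this length and with these letters.

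Transcripts of the inhibitor's own target complex differed little. Cdk8 measured 13.5, 12.6 and 14.5 FPKM in Vehicle and 15.8, 16.4 and 14.6 FPKM in the combination and was not called (0.19 ± 0.11, 95% interval -0.05 to 0.43, limma adjusted p = 0.17). Med12 was not called either (-0.09 ± 0.08, adjusted p = 0.36). Cdk19 stood at -0.46 ± 0.17 (adjusted p = 0.035), a call lost in 5 of 6 omissions of 1 library (adjusted p from 0.04 to 0.11), with no filter (0.058) and after quantile normalization (0.055). Ccnc, which encodes cyclin C, stood at 0.23 ± 0.09 (adjusted p = 0.046), lost in all 6 omissions (0.068 to 0.12). Med13 stood at -0.35 ± 0.11 (adjusted p = 0.016), lost without Vehicle library 3 (0.067) and without combination library 1 (0.062).

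Among the genes lower in the combination, Klf2, a zinc finger factor known from endothelial flow responses, fell far. Klf2 measured 32.4, 23.0 and 34.9 FPKM in Vehicle and 4.22, 3.22 and 6.57 FPKM in the combination (-2.48 ± 0.29, limma adjusted p = 6.7e-06). It stood at -0.54 ± 0.29 against Vehicle in PE alone and -1.57 ± 0.29 in the inhibitor alone. Of 12 tested Kruppel-like factors 6 were lower and none higher (median -0.32), Klf10 by -0.99 ± 0.20, Klf11 by -0.62 ± 0.13 and Klf3 by -0.46 ± 0.12 among them. Of 12 endothelial markers 4, Cdh5, Kdr, Vwf and Cldn5, are listed under 1 FPKM in all 6 libraries. So are Echs1, an enzyme of fatty acid oxidation, and Col1a2, a collagen chain, although their pathways are well expressed here, so a listing under 1 FPKM does not show that a transcript was absent. The summed level of the endothelial markers was 61.5 to 72.2 FPKM in Vehicle and 42.8 to 56.5 FPKM in the combination, and of the 7 tested 2 were lower, 4 with the replicate block and 1 without Vehicle 1, Vehicle 3 or combination 2. Their part in the value of Klf2 was not tested. In RNA from whole cultures, fewer cells of a type and less RNA per cell cannot be told apart.

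Other large falls touched unlike functions. Nkain4, a protein that interacts with the sodium pump, measured 11.4, 16.0 and 21.4 FPKM in Vehicle and 1.12, 2.33 and 1.44 FPKM in the combination (-2.70 ± 0.25, limma adjusted p = 6.8e-07). Rapsn, which clusters acetylcholine receptors at the neuromuscular junction, fell from 25.4, 28.7 and 28.9 FPKM to 4.76, 6.15 and 6.95 FPKM (-2.05 ± 0.12, adjusted p = 1.1e-08). Tmem71 measured 21.2, 29.98 and 23.7 FPKM in Vehicle and 1.03, 8.33 and 5.61 FPKM in the combination (-2.36 ± 0.41, adjusted p = 0.00026). Groups without overlap were a condition for naming these genes. Epha3, a receptor for ephrins, fell by 2.09 ± 0.23, Derl3, a component of endoplasmic reticulum degradation, by 2.08 ± 0.29, and Tnfrsf11b, the decoy receptor osteoprotegerin, by 2.05 ± 0.32. Gsta1, a glutathione transferase, fell by 1.86 ± 0.18 and the neural proteoglycan Cspg5 by 1.86 ± 0.26.

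Secreted matrix was lower. Of 18 tested extracellular matrix genes 12 were lower and none higher (median -0.68), 6 without Vehicle library 3 and 7 without combination library 2. Fn1, fibronectin, measured 369, 337 and 440.0 FPKM in Vehicle and 162, 111 and 192 FPKM in the combination (-1.32 ± 0.21, limma adjusted p = 9.9e-05). Col1a1, a chain of type I collagen, fell by 1.15 ± 0.29 (adjusted p = 0.0038), and Lox, which cross-links collagen and elastin, by 1.19 ± 0.24. Of 16 proteases of the matrix and their inhibitors 7 were lower and 1 higher (2 higher after quantile normalization or with the replicate block), and the aggrecanase Adamts5 fell by 1.41 ± 0.32. The elastin gene Eln measured 228, 195.5 and 466 FPKM in Vehicle and 73.0, 73.9 and 164 FPKM in the combination (-1.51 ± 0.43, limma adjusted p = 0.0086), without overlap; the call was lost without Vehicle library 3 (0.055). Of 12 tested fibroblast markers 3 were lower and none higher (median -0.65), and the lower count was near the 22.1% of all genes called lower. It was 8 with the replicate block and 6 without combination library 3. Col1a1, named above with the matrix, is also one of these markers. Their summed level was 1908 to 3215 FPKM in Vehicle and 926 to 1867 FPKM in the combination, and Col1a2 alone of the list is under 1 FPKM in all 6 libraries. Their part in the matrix result was not tested.

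Some signals that act on matrix and growth were lower and others higher. Tgfb1 and Tgfb3, ligands of the TGF-beta receptors, fell by 1.04 ± 0.13 (limma adjusted p = 1.3e-05) and 1.02 ± 0.19. In the list of 20 TGF-beta and BMP genes 7 were lower and 3 higher (median -0.16), the higher count being 1 without Vehicle 2, combination 1 or combination 3. Bmp7, a ligand of the BMP branch, rose by 1.42 ± 0.20. Of 23 growth factors and genes of the insulin-like growth factor system 8 were lower and 4 higher (median 0.08), the higher count being 2 without Vehicle 2. Igfbp3, which binds insulin-like growth factors, measured 44.6, 37.2 and 58.1 FPKM in Vehicle and 11.9, 13.1 and 11.7 FPKM in the combination (-1.82 ± 0.14, adjusted p = 1.2e-07). Igfbp6 and Igfbp4 of the same family fell by 1.54 ± 0.39 and 1.36 ± 0.33. Hbegf, a ligand of the EGF receptor, fell by 0.72 ± 0.12, although it stood 0.49 ± 0.12 above Vehicle in PE alone.

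Early response genes split. Of 21 immediate early and AP-1 genes 6 were higher and 6 lower (median -0.17), near the shares over all genes, and 3 were lower without Vehicle 1 or Vehicle 3. Nr4a3, an orphan nuclear receptor, rose from 0.900, 0.551 and 0.696 FPKM to 2.79, 2.06 and 2.06 FPKM (0.94 ± 0.18, limma adjusted p = 0.00049, and 1.57 with a pseudocount of 0.1), while Ier2 fell by 0.80 ± 0.16. Among 16 MAP kinase phosphatases and feedback inhibitors 4 were higher and 2 lower, 7 higher with the replicate block. The higher count in the main fit was near the share over all genes. The lower count was 1 with no filter, after quantile normalization and without Vehicle 1, Vehicle 2, combination 1 or combination 3. Dusp4 and Dusp8, phosphatases of MAP kinases, rose by 1.66 ± 0.21 and 1.21 ± 0.19, and Errfi1, an inhibitor of the EGF receptor, by 1.12 ± 0.24. Of 15 interferon-stimulated genes 6 were lower and none higher (median -0.43), led by the factor Irf9 (-1.16 ± 0.19, adjusted p = 0.00016). Of 13 inflammatory genes 4 were higher and 3 lower, near the shares over all genes. The adhesion molecule Vcam1 (1.65 ± 0.39) and the chemokine Ccl7 (1.52 ± 0.39) were higher, and the adhesion molecule Icam1 stood at -0.91 ± 0.21.

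Genes of protein handling are given by list, and differences between lists were not tested. Of 19 folding factors of the endoplasmic reticulum 12 were lower and none higher (median -0.45). Hspa5, the chaperone BiP, measured 607, 592 and 720.4 FPKM in Vehicle and 389, 345 and 399 FPKM in the combination (-0.76 ± 0.10, limma adjusted p = 2.9e-05, and -1.17 after quantile normalization), and the disulfide isomerase Pdia4 fell by 0.94 ± 0.11. Of 20 heat shock genes 12 were higher and 1 lower (median 0.51; 4 lower after quantile normalization, 2 with the replicate block or with array weights). Among them were the small heat shock proteins of muscle Hspb7 (1.35 ± 0.12) and Hspb3 (1.15 ± 0.16). Of 22 proteasome subunits 21 were higher and none lower (median 0.35), and 6 after quantile normalization (median 0.09). Of 18 aminoacyl-tRNA synthetases, which charge tRNAs, 13 were higher and none lower (median 0.37), and 8 after quantile normalization, without Vehicle 2 or without combination 1. Of 25 genes of the integrated stress response 8 were higher and 2 lower (median 0.17). Mthfd2, an enzyme of mitochondrial folate metabolism, rose by 1.31 ± 0.19 and the serine enzyme Shmt2 by 0.95 ± 0.13.

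Detoxifying enzymes went both ways, with 4 of 22 NRF2 and glutathione genes higher and 7 lower (median 0.03). Gstk1, a glutathione transferase of mitochondria and peroxisomes, measured 12.5, 10.7 and 13.1 FPKM in Vehicle and 60.1, 52.7 and 35.1 FPKM in the combination (1.91 ± 0.19, limma adjusted p = 1.1e-06). Gstp1 of the cytosol fell by 1.25 ± 0.19, Hmox1, which breaks down haem, by 1.01 ± 0.28 and the quinone reductase Nqo1 by 0.99 ± 0.23. Among 18 cardiac transcription factors 10 were higher and 3 lower (median 0.35), 6 higher after quantile normalization, without Vehicle 3 or without combination 1. Gata4, a zinc finger factor of heart development, rose by 0.68 ± 0.09 (0.43 after quantile normalization), and Foxo1, a forkhead factor that insulin signalling inhibits, fell by 0.84 ± 0.13. Of 18 muscle ubiquitin ligases and autophagy genes 3 were higher and 5 lower (11 lower after quantile normalization), with the autophagy kinase Ulk1 at -0.86 ± 0.15. Of 21 ribosome biogenesis genes 7 were higher and none lower (median 0.14; 2 lower after quantile normalization), near the share of all genes called higher.

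Markers of the labelled cell type were abundant. Of 12 cardiomyocyte markers 10 were higher and 1 lower (median 0.89; 3 lower after quantile normalization), and their summed level was 39607 to 55240 FPKM in Vehicle and 82160 to 102650 FPKM in the combination. Macrophage markers summed to 40.3 to 123.5 FPKM in Vehicle and 29.4 to 252 FPKM in the combination, and Adgre1, Cd163, Mrc1 and C1qb are listed under 1 FPKM in all 6 libraries. Of 6 epicardial markers 3 were lower, none without Vehicle 3 or combination 1 and 1 without combination 2, and their summed level was 36.5 to 56.1 FPKM in Vehicle and 16.4 to 37.6 FPKM in the combination. Of 8 atrial markers 1, Nppa, was higher and 2 lower, and of 5 Schwann and neural markers 1 was higher and 2 lower; these small counts moved by 1 or 2 under several settings. No erythroid marker passed the filter on low levels.

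Set against PE alone, which asks what the inhibitor added to the stimulated cells, 957 genes (9.13%) were higher in the combination and 821 (7.84%) lower, 2924 in all with the replicate block. Aminoacyl-tRNA synthetases had 12 of 18 members higher and none lower, glycolysis 13 of 24, fatty acid oxidation 13 of 31 and the integrated stress response 9 of 25 with 1 lower. Lower were 9 of 25 DNA replication genes, 8 of 17 G1 cyclins and their inhibitors, 9 of 19 folding factors of the endoplasmic reticulum and 8 of 21 immediate early genes, with none higher in these lists. None of the 25 mitosis genes was called in either direction. The Z-disc list had 4 of 15 members lower and none higher, with Csrp3 at -1.04 ± 0.20 against PE, though it stayed above Vehicle. Slc2a1 stood at 1.92 ± 0.12 and Gstk1 at 1.80 ± 0.19 against PE, close to their values against Vehicle.

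The single agents were then set beside the combination, to describe where its level lay. These comparisons share libraries, and the genes were chosen by their values in them. The source of a level was not tested. In 1 class PE lay away from Vehicle, and the combination lay at least 2-fold from PE in the direction of Vehicle. No nearness to Vehicle was required. Scn3b, a sodium channel subunit, measured 5.02, 2.30 and 2.02 FPKM in Vehicle, 23.7, 28.5 and 29.6 FPKM in PE and 6.68, 6.59 and 7.01 FPKM in the combination, which still left it 0.99 ± 0.24 above Vehicle (limma adjusted p = 0.0035). Azin2, an antizyme inhibitor, measured 4.53, 4.68 and 2.44 FPKM in Vehicle, 15.8, 16.2 and 14.2 FPKM in PE and 3.99, 4.72 and 4.62 FPKM in the combination. It was not called against Vehicle (0.19 ± 0.18, 95% interval -0.19 to 0.56, adjusted p = 0.40). Adamts19, a secreted metalloprotease, stood at 0.27 ± 0.13 against Vehicle (95% interval -0.0017 to 0.53, adjusted p = 0.094), and passed with no filter (0.039) and after quantile normalization (0.048). Rnd1, a small GTPase, stood at 0.49 ± 0.20 (95% interval 0.05 to 0.92, adjusted p = 0.06), and passed with the replicate block (0.033) and without Vehicle 1 (0.015) or combination 1 (0.046).

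In a further class the combination lay beyond PE in the same direction. Bok, a BCL-2 family protein, measured 31.7, 26.8 and 21.7 FPKM in Vehicle, 106, 89.0 and 82.9 FPKM in PE and 231, 209.6 and 193 FPKM in the combination (2.95 ± 0.16 against Vehicle, limma adjusted p = 9.2e-09). Bok in the inhibitor alone measured 82.1, 66.6 and 53.9 FPKM. For Synm the values against Vehicle were 1.73 ± 0.17 in PE, 1.53 ± 0.17 in the inhibitor and 3.29 ± 0.17 in the combination. Its interaction, the part that the sum of the single agents' log2 fold changes leaves over, was 0.03 (limma adjusted p = 0.99).

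For other genes PE alone stood at the Vehicle level. Ntsr2, a neurotensin receptor, measured 0.057, 0.10 and 0.045 FPKM in Vehicle and 7.11, 5.03 and 7.39 FPKM in the combination (2.80 ± 0.19, limma adjusted p = 4.7e-08, and 5.29 with a pseudocount of 0.1). Its values against Vehicle were 0.03 ± 0.19 in PE and 1.67 ± 0.19 in the inhibitor. Tgm3, a transglutaminase best known from skin, measured 0.063, 0.22 and 0.12 FPKM in Vehicle and 10.1, 18.1 and 4.80 FPKM in the combination (3.24 ± 0.33, adjusted p = 1.7e-06, and 5.42 with a pseudocount of 0.1). Car3, a carbonic anhydrase of muscle and fat, rose by 1.98 ± 0.33 and stood 2.50 ± 0.33 above Vehicle in the inhibitor alone. Wnk2, a kinase that regulates chloride transport, and Impa2, an inositol phosphatase, lay on the other side of Vehicle from PE: Wnk2 at 1.00 ± 0.10 in the combination and -0.42 ± 0.10 in PE, and Impa2 at 0.72 ± 0.13 and -0.45 ± 0.13.

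**Figure D4:**
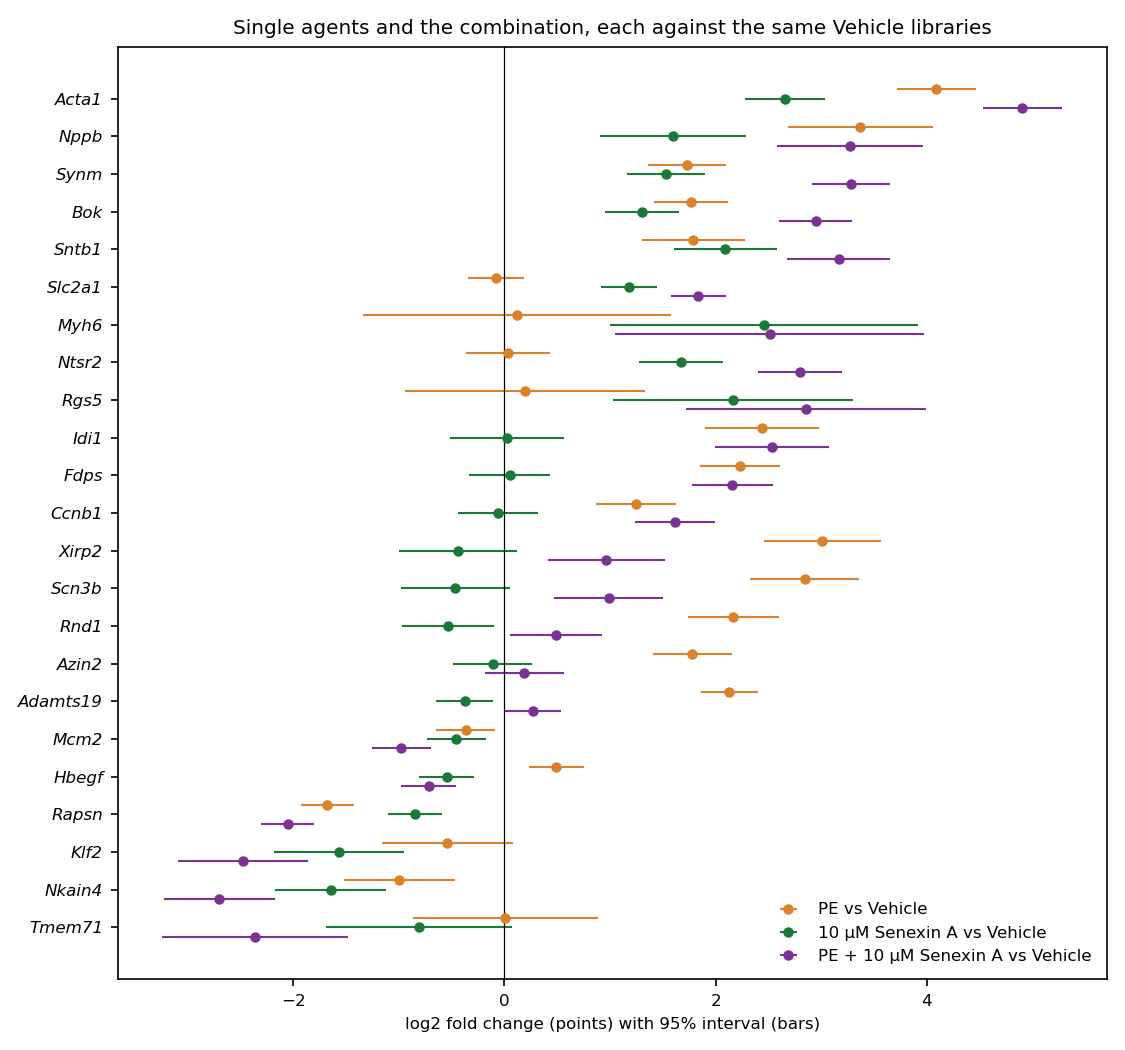
Log2 fold changes against the same 3 Vehicle libraries, with 95% intervals as bars, for 23 genes in PE (orange), 10 µM Senexin A (green) and the combination (purple). Synm and Bok lie further right in the combination than in either agent, Idi1 and Fdps lie with PE, Slc2a1, Ntsr2 and Rgs5 lie nearer the inhibitor, and Xirp2, Scn3b, Rnd1, Azin2 and Adamts19 lie nearer Vehicle than PE does.

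Few genes were called as departing from the sum of the single agents' log2 fold changes. A gene without a call is not shown to follow that sum. Interaction medians were -0.57 for thin and thick filament genes, -0.54 for fetal genes, -0.49 for Z-disc genes and 0.38 for mitosis. Called lower were 2 of 16 filament, 4 of 18 fetal and 2 of 15 Z-disc genes, while no mitosis gene was called. Over all genes the median was 0.0013, and differences between lists were not tested. The interaction of PE and 10 µM Senexin A was called for 32 genes (0.305%), 7 higher and 25 lower than the sum, and for 230 with the replicate block. Named genes called only with the block or other alternatives included Nppb (-1.69, limma adjusted p = 0.029 with the block and 0.16 without). Others were Xirp2 (-1.61, 0.021 and 0.095) and Tgm3 (2.12, 0.0036 and 0.078). Acta1 stood lower than the sum on the log2 scale (-1.84, limma adjusted p = 0.0035), although it was higher in the combination than with either agent. Its mean was 181 FPKM in Vehicle, 3078 in PE, 1169 in the inhibitor alone and 5426 in the combination. A sum of log2 fold changes is a product of fold changes, and departure from a sum of FPKM levels was not tested. Fbxl22, a muscle F-box protein of the Z-disc, measured 10.8, 9.12 and 7.55 FPKM in Vehicle, 33.6, 28.1 and 22.5 FPKM in PE, 52.2, 57.2 and 53.4 FPKM in the inhibitor and 50.1, 65.5 and 60.6 FPKM in the combination (interaction -1.41, adjusted p = 0.007). The libraries of the combination and of the inhibitor alone overlapped for Fbxl22. Nrbp2, a pseudokinase, measured 25.95, 23.8 and 26.2 FPKM in Vehicle, 21.1, 23.6 and 20.5 FPKM in PE, 37.0, 33.2 and 27.1 FPKM in the inhibitor and 71.6, 60.7 and 71.9 FPKM in the combination (interaction 1.26, adjusted p = 0.0039). The combination stood above all other groups for Nrbp2.

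Several of the genes named share their position with another row of the table, and the counting is not stated to use strand, so their reads cannot be assigned with certainty. Among those with values above they are Myh6, Myh7, Idi1, Rgs2, Ppargc1b and Lox. Gcat (2.95) and Sncg (-2.10), of the 12 largest rises and falls, belong to the same group, as does Cacna1h, a T-type calcium channel (0.76 ± 0.15).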

How the data were processed

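The series holds 18 libraries in 6 groups of 3, and the comparison of PE plus 10 µM Senexin A with Vehicle uses 6 of them. Per the labels' protocols, polyadenylated RNA was sequenced. Per the submitters' processing notes, Bowtie2, Cufflinks and the rn5 genome were used; their roles, versions, the annotation and strand handling are not given in the sources used here. Deposited levels are FPKM per gene, normalized by the authors, with 17303 rows; 27.4% of the values equal the lowest value, 0.01 FPKM, 2766 rows do so in all libraries, and read depth is not recorded.

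From these, log2(FPKM + 1) was fitted for 10478 rows, those that reach 1 FPKM in 3 or more libraries, in limma 3.58.1 (R 4.3.3), with all 6 groups in 1 model, a variance trend and Benjamini-Hochberg adjustment over all rows tested; a call is an adjusted p under 0.05. The code was tested on simulated data. Tables were made in Python 3.11.15. The genes named are the 12 largest called changes each way whose groups do not overlap and reach a mean of 5 FPKM in one of them, up to 4 called members of each list, a panel of hypertrophic and Mediator genes, up to 6 genes for each relation to the single agents and up to 4 interactions each way. Genes and lists were chosen with earlier results of these data known, so they are no independent support. Libraries with the same replicate number deviated together from their group means (r = 0.302, 0.440 and 0.435, against -0.327 to -0.058 for different numbers). A number may therefore mark something that its libraries share, but the labels do not say what. The values, SEs and calls given are from the model that does not use the numbers, so they do not allow for such sharing. The fit with the number as a block is an alternative. It is given where it changes a named gene's call between the combination and Vehicle or moves a count by more than 1.5 times. Calls it changes in the other comparisons and in the interaction are not all listed. Alternatives were pseudocounts of 0.1 and 0.5, no filter, a filter of 5 FPKM, quantile and median-ratio normalization, the compared groups alone, the replicate block, array weights, omission of each library in turn and a test against an absolute log2 fold change of 1. Of the rows, 14801 matched a RefSeq symbol. Promoters were read from RefSeq sequences (GRCr8), while gene positions are those of the deposited table (rn5).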

Additional observations from a re-analysis of the deposited data

Results flagged for a closer look

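On the log2 scale the effect of 10 µM Senexin A differed between cells with and without PE for 32 genes by limma's interaction term. The 14 of them that the naming rule covers are given here. Acta1 stood at -1.84 (adjusted p = 0.0035), Fbxl22 at -1.41 (0.007), Nrbp2 at 1.26 (0.0039) and Ptgds, a prostaglandin D synthase, at 1.11 (0.0017); these stayed called whichever library was left out. So did Adamts19 at -1.49 (0.0012), which lost its call with a pseudocount of 0.1 (0.16). Ptgds measured 20.2, 19.4 and 20.02 FPKM in Vehicle, 8.59, 9.09 and 9.17 FPKM in PE, 8.87, 11.7 and 10.4 FPKM in the inhibitor alone and 12.01, 9.58 and 10.4 FPKM in the combination. All Vehicle libraries lay above those of the other groups for Ptgds.

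Azin2 stood at -1.48 (limma adjusted p = 0.015), lost without PE 2 (0.066) and without combination 1 (0.057). Myl3 stood at -1.16 (adjusted p = 0.015), lost without PE 2 (0.062), combination 1 (0.057) or inhibitor 2 (0.061) and with no filter (0.058).

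The others lost their call in most omissions of 1 of the 12 libraries and with no filter on low levels. Among them Ankrd1 stood at -1.27 (limma adjusted p = 0.046), lost in 9 of 12 omissions (0.017 to 0.14), Rcan1 at -1.08 (0.033), lost in 9 (0.022 to 0.11), and Actc1 at -1.01 (0.049), lost in 11 (0.046 to 0.15). Neil2, a DNA glycosylase, stood at 1.39 (limma adjusted p = 0.048), lost in 9 of 12 omissions (0.031 to 0.14), at both smaller pseudocounts and with no filter. Ebp, a sterol isomerase, stood at 1.23 (adjusted p = 0.046), lost in 10 of 12 (0.037 to 0.14). S1pr1, a receptor for sphingosine-1-phosphate, stood at -1.57 (adjusted p = 0.048), lost in 11 of 12 (0.041 to 0.14). Csrp3 stood at -1.43 (adjusted p = 0.043), lost in 9 of 12 (0.0062 to 0.14). Further losses were those of Actc1 with pseudocounts of 0.1 and 0.5, and of Ebp and S1pr1 with a pseudocount of 0.1. Ankrd1 also lost its call after quantile normalization, and Csrp3 with the compared groups alone. Neil2 measured 12.9, 9.06 and 11.7 FPKM in the combination, against 0.46 to 2.68 FPKM in the libraries of Vehicle, PE and the inhibitor alone.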

How the results depend on the processing

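The count of genes called between the combination and Vehicle, 5098, lay between 4610 and 5913 under the alternative pseudocounts, filters, normalizations and weights, with the compared groups alone and with the replicate block, which gave 5913. Leaving out 1 library gave 4118 to 4753 (2345 to 2623 higher, 1773 to 2130 lower). Testing against a minimum log2 fold change of 1 gave 115 (98 higher, 17 lower), as that test asks for a larger change. In the inhibitor alone the block gave 2761 calls and omissions 949 to 1456 (949 without inhibitor library 2, 1003 without Vehicle 3), and against PE the block gave 2924 and omissions 1032 to 1575 (1032 without PE 3, 1133 without PE 2, 1102 without combination 1). The interaction, 32 calls, gave 20 with no filter, 230 with the block, 86 with array weights and 13 to 34 in omissions (13 without PE 2, combination 1 or inhibitor 2, 15 without Vehicle 2, 16 without PE 3, 19 without Vehicle 3). For these counts the cause was not tested. Of the 2978 values of named genes against Vehicle under an alternative, 2889 kept their side of the threshold (2 of them, not called, changed sign), 84 lost the call (24 genes), 5 gained it (2 genes) and none reversed a call. Against Vehicle the block ended the call of no named gene and added that of Rnd1. With no read totals, precision at low level cannot be given.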
